A study of Mus musculus with 2 samples.

Results

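Transcription factors of oligodendrocyte specification and maturation were followed in mouse forebrain precursors infected with a control retrovirus or with one carrying HMGN1, a chromatin protein that binds nucleosomes. The factors were taken by gene symbol (Olig1, Olig2, Nkx2-2, Nkx6-2, Sox8, Sox9, Sox10, Zfp488 and Myrf), and all 9 had a probe set whose platform annotation gave that symbol alone. They are 9 of 19938 genes, and 9 of 28944 probe sets, in the deposited table. Each factor had 1 probe set, and 0 probe sets shared by several genes named any of them.

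The cells of both groups were neural precursors from Jcl:ICR mouse forebrain at stage E11.5. The control group received the control retrovirus and the other group the HMGN1 retrovirus, both in medium with FGF2 and EGF. At 3 days after infection the cells were replated on poly-D-lysine and kept for 1 day without either growth factor. Total RNA of each group went onto 1 whole-transcript array, so the series has 2 arrays. The share of cells that carried a virus, the promoter that drove HMGN1 and the number of embryos pooled are not given in the sources used here. Retroviral vectors generally integrate in dividing cells.

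Values are deposited intensities on a linear scale, and every difference is the HMGN1 virus array minus the control virus array in log2(intensity + 16), where the added 16 damps the noise of dim probe sets and understates their change. A gene counted as detected when its mean over both arrays reached an intensity of 85.9, which 95% of 1035 probe sets for olfactory receptors stay under. This left 11325 genes. Hmgn1 had an intensity of 229.7 on the control virus array and 348 on the HMGN1 virus array, a difference of 0.57. All 8 listed neural precursor markers (Nes, Sox1, Sox2, Pax6, Vim, Fabp7, Prom1 and Msi1) were detected, 3 higher and 5 lower with a median of -0.016. They summed to 23662 and 23468 on the control and HMGN1 virus arrays, a sum made mostly by Fabp7 and Vim, while Sox1 (601 and 467, -0.35) and Prom1 (-0.24) were lower by over 1.1-fold. With 1 array per virus there is no replicate and no test between the groups, so every difference describes this pair of RNA samples. In a whole culture, fewer cells of a type and less RNA per cell cannot be told apart.

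Oligodendrocytes are the myelin-forming cells of the central nervous system. Precursors are first committed to the lineage by the basic helix-loop-helix factors Olig1 and Olig2, which Sonic hedgehog signalling induces in the ventral neural tube and forebrain, and by homeodomain factors such as Nkx2-2. SoxE proteins (Sox8, Sox9 and Sox10) act with them, Sox9 early and Sox10 through to myelination, where Sox10 and Myrf together turn on myelin genes. Withdrawal of mitogens is a common way to let such precursors leave division and differentiate.

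The factors differed in both directions. Myrf was the highest of the 9 with a difference of 0.31, Zfp488 and Nkx2-2 followed at 0.19 and 0.17, and Olig2 was the lowest at -0.16. Olig1, Sox8 and Sox9 lay between -0.031 and 0, and Sox10 was at 0.055. Of the 8 detected factors 4 were higher, 3 lower and 1 equal, against 60.1% of all detected genes higher and 38.4% lower. Their median difference was 0.028, and that of all detected genes was 0.027.

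**Figure D1:**
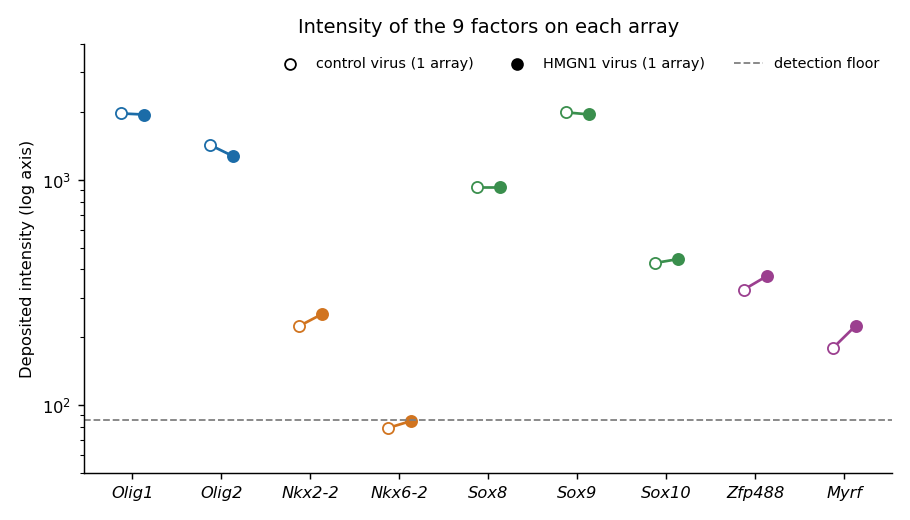
Deposited intensity of the 9 factors (log axis) on the control virus array (open circles) and the HMGN1 virus array (filled circles), 1 array each, with a dashed line at the detection floor of 85.9. Lines slope up for Myrf, Zfp488 and Nkx2-2 and down for Olig2, and Nkx6-2 lies under the floor on both arrays. Heights are to be compared within a gene only, since probe sets differ in brightness.

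No factor reached a 1.5-fold difference, a log2 difference of 0.585, which 0% of detected genes reached upwards and 0.0706% downwards. These shares hold for values with the constant added before the log2, which understates change. Hmgn1 (229.7 and 348, 0.567) and Gfap (406 and 615, 0.579) fell just short with it. The plain ratios of their intensities lie above 1.5. None of the factors reached a log2 difference of 0.322 either, where the shares of detected genes were 0.494% higher and 0.521% lower. At 1.1-fold, a log2 difference of 0.14, Myrf, Zfp488 and Nkx2-2 were higher, 3 of 8, where 13.1% of detected genes were. Olig2 was lower by that size, 1 of 8, where 7.2% of detected genes were. As a gauge of scatter, single probe sets lay around the mean of their gene with an SD of 0.0891 over 683 genes. Myrf, Zfp488, Nkx2-2 and Olig2 each differed by more than this SD, and Olig1, Sox8, Sox9 and Sox10 by less. A difference of that size is common, since the upper quartile of all detected genes was 0.094 and their SD was 0.11. This gauge holds no variation between cultures or RNA preparations, for which there is no measure here.

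**Figure D2:**
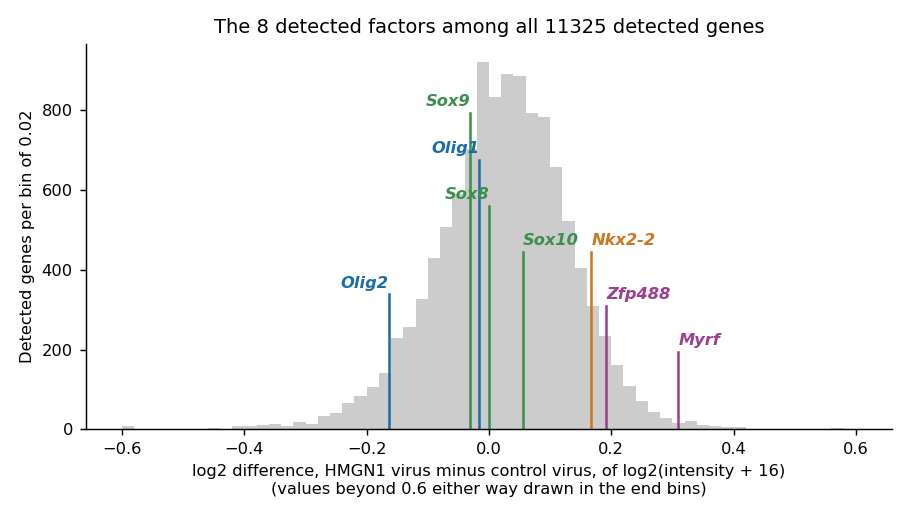
Histogram of the log2 differences of all 11325 detected genes (bins of 0.02) with a vertical line at each of the 8 detected factors, the height of a line having no meaning. Myrf stands in the upper tail at 0.31 and Olig2 towards the lower one at -0.16, with Olig1, Sox8, Sox9 and Sox10 in the body of the distribution.

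Olig2, the factor that commits precursors to the oligodendrocyte and motor neuron lineages, had an intensity of 1427 on the control virus array and 1272 on the HMGN1 virus array. Its difference of -0.16 is 1.12-fold lower, and 524 of the 11325 detected genes, 4.63%, were at least as low. Olig1, its paralogue with a larger part in maturation, was at 1968 and 1946, a difference of -0.016. The paralogues are neighbours on mouse chromosome 16, with 1 annotated gene between them (Gm52261), yet the Olig2 difference lay 0.15 below that of Olig1. The SD of 0.0891 given above is of single probe sets around their gene's mean. It is too small a scale for this gap between probe sets of different genes, and no direction between the paralogues is read from it. Removing the trend of the difference with gene span turned Olig1 to 0.0086, so its direction is not fixed.

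Nkx2-2, a homeodomain factor induced by Sonic hedgehog that times the onset of differentiation in oligodendrocyte progenitors, was at 224 on the control virus array and 253 on the HMGN1 virus array. The difference of 0.17 is 1.12-fold higher, and 7.93% of detected genes were at least as high. Nkx2-2 and Olig2 thus differed in opposite directions, by a gap of 0.33. Nkx6-2, a homeodomain factor of ventral progenitors and later of myelinating cells, was at 79.0 and 84.9, under the detection floor on both arrays. Its difference of 0.087 lies within the SD of 0.156 found among 1027 olfactory receptor genes, so no direction is read from it.

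The start regions of Olig2 and Nkx2-2 are shown because these are the patterning factors that differed in opposite directions, and both answer to Sonic hedgehog. Each sequence is the 250 bases before an annotated start, from RefSeq on GRCm38.p6, written 5′ to 3′ along the gene's own strand. Capitals mark E-boxes (CANNTG, the kind of site that basic helix-loop-helix proteins bind), CCAAT boxes (CCAAT or, on the other strand, ATTGG) and TATA boxes (TATAAA). The window of Olig2 is chr16:91225300-91225549 on the plus strand. The window of Nkx2-2 is chr2:147186403-147186652 on the minus strand, and other annotated transcripts of Nkx2-2 begin further upstream.
Olig2: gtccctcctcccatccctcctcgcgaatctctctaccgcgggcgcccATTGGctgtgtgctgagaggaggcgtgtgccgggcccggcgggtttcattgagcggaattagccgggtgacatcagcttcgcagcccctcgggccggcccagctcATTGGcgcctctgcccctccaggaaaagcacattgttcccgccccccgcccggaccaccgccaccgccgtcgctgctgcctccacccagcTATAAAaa
Nkx2-2: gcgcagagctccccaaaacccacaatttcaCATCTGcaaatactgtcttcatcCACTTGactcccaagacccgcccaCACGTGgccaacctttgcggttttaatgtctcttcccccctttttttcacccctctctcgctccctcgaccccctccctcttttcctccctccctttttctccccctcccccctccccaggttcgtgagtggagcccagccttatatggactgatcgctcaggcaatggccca

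The windows carry different letters. That of Nkx2-2 holds 3 E-boxes and neither a CCAAT nor a TATA box, and that of Olig2 holds 2 CCAAT boxes, 1 TATA box and 0 E-boxes. The TATAAA of Olig2 lies at the very end of its window, next to the annotated start. It is a match of letters, and no working TATA box for that start is read from it. Both strands were searched. Among 32851 such windows of mouse genes, 66.2% hold an E-box, 33.8% a CCAAT box and 12.4% a TATA box. The NK2 core AAGTG occurs once in the Nkx2-2 window, on the reverse strand inside the middle E-box, and in 40.7% of all windows. Windows were at hand for 5 of the 9 factors (Olig2, Nkx2-2, Nkx6-2, Sox8 and Zfp488), and the SOX core ACAAAG, found in 16.5% of all windows, was in 0 of the 5. The window of Zfp488, a factor that was also higher (0.19), holds 0 E-boxes, 0 CCAAT boxes and 0 TATA boxes. That of Sox8 holds 1 E-box, and that of Nkx6-2 holds 1 E-box and 2 CCAAT boxes. A link between these letters and the differences was not tested. These matches describe letters in a short window and show no binding.

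The SoxE genes lay close to their control values. Sox9, which gives precursors their glial competence and stays on in astrocytes, was at 1991 and 1948, a difference of -0.031. Sox8, which overlaps in function with the other SoxE genes, was at 928.3 on both arrays, with the same value to every deposited digit. Such ties occurred for 749 probe sets, 2.59% of the table, and for 168 detected genes, and their origin was not tested, so no equality is read from the 0 of Sox8. Sox10, the SoxE gene kept through to myelination, was at 427 and 444, a difference of 0.055, and 38.7% of detected genes were at least as high. All 3 differences were within that scatter of 0.0891.

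The maturation factors Zfp488 and Myrf had the largest positive differences, but an order by stage was not tested. Zfp488 lay close to Nkx2-2 (0.17), named above both for commitment and for the onset of differentiation. Sox10, kept through to myelination, was at 0.055. Zfp488, a zinc finger protein that works with Olig2 to promote differentiation, was at 325 on the control virus array and 373 on the HMGN1 virus array. Its difference of 0.19 is 1.14-fold higher, and 591 detected genes, 5.22%, were at least as high. Myrf is a membrane-bound factor that cuts itself free and then drives myelin genes in newly formed oligodendrocytes. Its intensity was 178 and 225, a difference of 0.31 or 1.24-fold, and 66 detected genes, 0.583%, were at least as high. Without the added 16 the Myrf ratio is 1.26, a log2 difference of 0.33, which is past the size of 0.322. The gap between Myrf and Olig2 was 0.47, and 94.8% of detected genes lay between them.

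Olig2 was the lowest and Myrf the highest of the 9 under each of the 9 other settings that change the values or the set of genes. Several of these settings could not change that order. Centring shifts every gene by the same amount, and means of probe sets and other floors leave each factor's value as it was. Olig2 ranged from -0.20 to -0.15, Nkx2-2 from 0.13 to 0.18, Zfp488 from 0.15 to 0.20 and Myrf from 0.25 to 0.33. Sox10 stayed between 0.018 and 0.057 and Sox9 between -0.058 and -0.016. Sox8 took both signs around 0, from -0.035 to 0.0061. No factor moved by as much as 0.0891 under any of them.

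**Figure D3:**
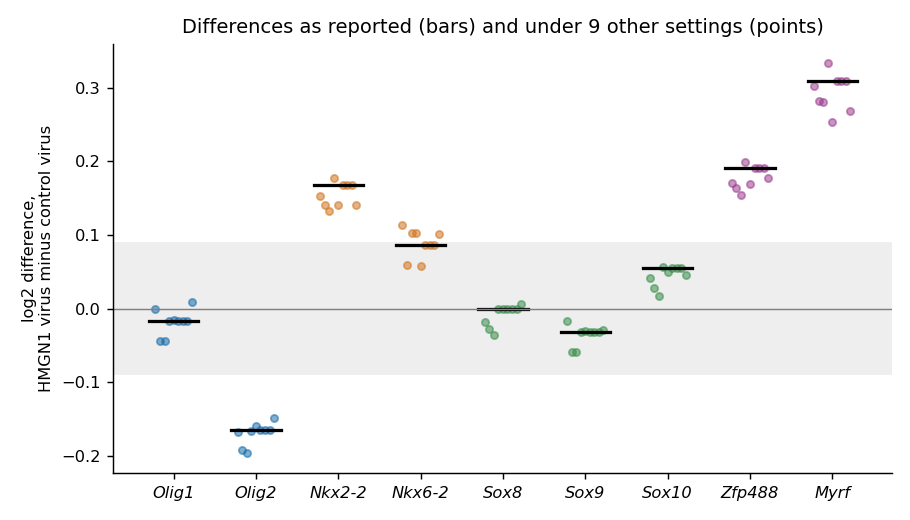
Log2 difference of each factor as reported (black bars) and under 9 other settings (points), with a grey band at 1 SD between probe sets of 1 gene (0.0891) on either side of 0. Olig2 stays below the band, and Nkx2-2, Zfp488 and Myrf stay above it. Olig1, Sox8, Sox9 and Sox10 stay inside it.

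The order of the differences ran along with how bright and how short the genes are. Over the 8 detected factors Spearman's rho was -0.90 between mean intensity and the difference and 0.86 between gene span (start to end, introns included) and the difference. These are descriptions over 8 genes that share the same pair of arrays. Gene span was 2.17 kb for Olig1, 3.13 kb for Olig2, 9.58 kb for Sox10, 18.9 kb for Nkx2-2 and 32.5 kb for Myrf. Over 10882 detected protein-coding genes the rho with span was 0.23. The 1089 of them that span up to 4.29 kb had a median of -0.027, and the 1089 that span over 138 kb had one of 0.053. With the span trend removed, Olig2 was at -0.15, Nkx2-2 at 0.14, Zfp488 at 0.18 and Myrf at 0.27, so the gap between Myrf and Olig2 was 0.42. By brightness, detected genes under an intensity of 143 had a median of 0 and those from 450.7 up one of 0.036.

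**Figure D4:**
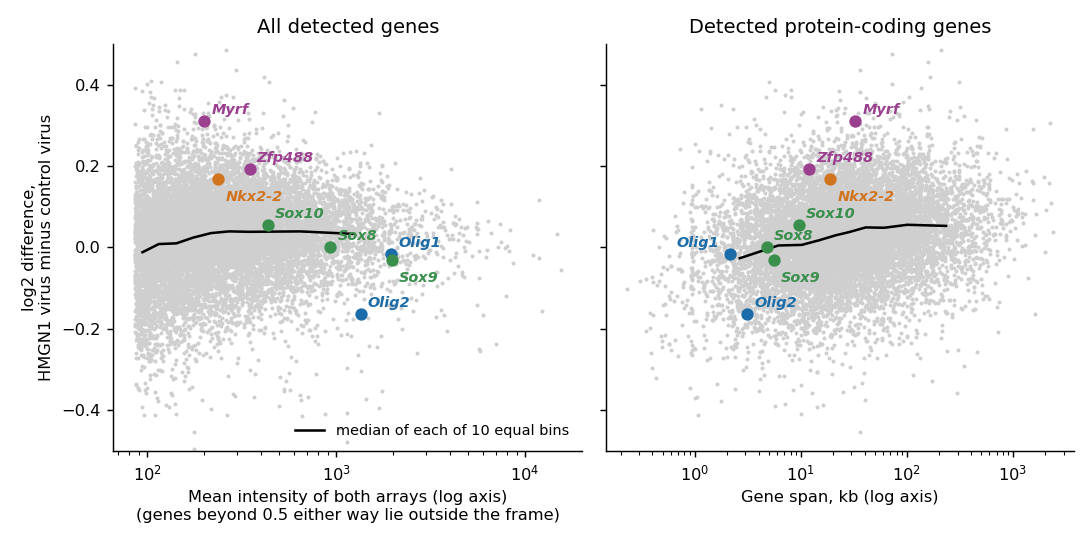
Log2 difference of detected genes (grey) against mean intensity (left) and gene span (right, protein-coding genes), both on log axes, with black lines through the medians of 10 equal bins of genes and coloured points for the 8 detected factors. Myrf, Zfp488 and Nkx2-2 lie above the black line and Olig2 below it in both panels, while Olig1, Sox8 and Sox9 lie nearer to it.

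Genes around these factors were taken from lists by role. Of 14 listed Sonic hedgehog signalling genes 13 were measured and 10 detected, with 6 higher, 4 lower and a median difference of 0.015. Shh, the ligand, was at 105 and 101 (-0.046), its receptor Ptch1 at 869 and 832 (-0.063), and the target and effector Gli1, at 87.3 and 80.1, lay under the floor by its mean. The coreceptor Gas1 (-0.19) and the ligand-release transporter Disp1 (-0.090) were lowest, and the coreceptor Cdon (0.21) and the effector Gli2 (0.13) highest. A second probe set of Disp1 gave 0.026. At the 1.1-fold size 1 of the 10 was higher (Cdon) and 1 lower (Gas1), close to the 13.1% and 7.2% of all detected genes.

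Of 34 listed partner and cofactor genes 33 were measured and 30 detected, 18 higher and 12 lower, with a median of 0.025. None was 1.1-fold higher, where 13.1% of detected genes were, and 2 of the 30 were 1.1-fold lower, close to the share of 7.2% over detected genes. They were Zfp536 (131 and 107, -0.26), a zinc finger protein, and E2f1 (-0.15), a driver of S phase. At the other end were Tcf7l2 (0.13), a Wnt effector used in newly formed oligodendrocytes, and Zeb2 (0.12), which opposes BMP and Wnt signals in them. The chromatin remodeller Chd7 shows how far single probe sets of a gene can scatter. Its 30 probe sets ran from -0.082 to 0.20 around a median of 0.059, with an SD of 0.0766. That span takes in Nkx2-2 and Zfp488 but neither Myrf nor Olig2. Chd7 was named after its values were seen, and its span around its own median sets no bound for other genes.

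Inhibitors of oligodendrocyte differentiation went both ways. Of 25 listed genes 24 were detected, 14 higher, 7 lower and 3 equal, with a median of 0.027. At the 1.1-fold size 5 of the 24 were higher and 1 lower, against 13.1% and 7.2% of detected genes, and Bmp4 alone was past a log2 difference of 0.322. Sox11, a SoxC factor of immature cells (2324 and 2094, -0.15), and Lingo1, a membrane protein that restrains myelination (-0.13), were lowest. Bmp4, a ligand that diverts progenitors towards astrocytes (229 and 302, 0.38), and Tbr1, a cortical neuron factor (0.19), were highest.

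Detected progenitor genes stayed near the centre and detected genes of premyelinating and myelinating cells did not. The lists were chosen with earlier results of these data known, so the counts below are a description and no test of this contrast. Of 17 progenitor genes 16 were detected, 9 higher and 7 lower, with a median of 0.019. Their range went from the proteoglycans Cspg4 (-0.059) and Cspg5 (-0.054) to C1ql1 (0.11) and the sulfatase Sulf2 (0.25), and Pdgfra, the receptor that keeps progenitors dividing, was at 1135 and 1213 (0.094). Of 28 listed premyelinating and myelin genes 25 were measured and 15 detected, and all 15 were higher, where 60.1% of detected genes were, with a median of 0.17 against 0.027 over all detected genes. At the 1.1-fold size 11 of the 15 were higher and 0 lower, against 13.1% and 7.2% of detected genes, and 3 were higher by a log2 difference of 0.322, against 0.494%. Enpp6, a phosphodiesterase of newly formed oligodendrocytes (121 and 172, 0.46), and Gpr17, a receptor of committed progenitors (686 and 869, 0.33), were highest. Qk, an RNA-binding protein (0.018), and Fa2h, an enzyme of myelin lipids (0.058), were lowest, and the myelin gene Mbp was at 107 and 134 (0.28). The dimmer probe sets of Qk gave 0 and -0.067. Among the 10 genes of this list under the floor, 5 were higher and 5 lower. Myrf lay above all 16 detected progenitor genes, and Olig2 lay below all 16 and below all 15 detected premyelinating and myelin genes. These ranges overlap, so a factor inside both belongs to neither by its difference.

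**Figure D5:**
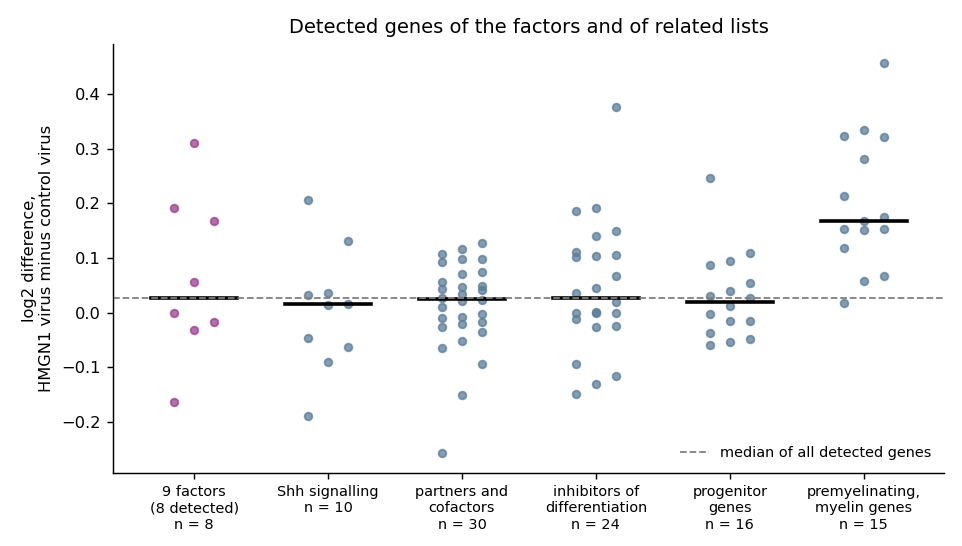
Log2 differences of the 8 detected factors and of the detected genes of 5 related lists, 1 point per gene, with a black bar at each median and a dashed line at the median of all detected genes (0.027). Medians of the factors and of 4 lists lie between 0.015 and 0.028, and that of the premyelinating and myelin genes is 0.17. Markers of other cells are not drawn, among them the astrocyte markers with a median of 0.15 and the neuron markers with 0.11.

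Several of these factors are used outside the oligodendrocyte lineage, so markers of other cells are given beside them. Of 12 measured neural crest and Schwann cell markers, a lineage that also uses Sox10, 3 were detected (Ednrb, Ngfr and Mitf), and the sum of all 12 was 4220 on the control virus array and 4361 on the HMGN1 virus array, of which Ednrb alone made 3579 and 3736. Among the 9 markers under the floor were Foxd3 (48.7 and 53.6), Tfap2a (39.7 and 43.4) and Erbb3 (65.7 and 56.2), each under it on both arrays. Of 6 cartilage markers, a tissue that uses Sox9, 3 were detected (Col2a1, Col9a1 and Col11a2) with differences from -0.064 to -0.053, Acan lay under the floor, and the sum was 551 and 524. Of 8 astrocyte markers, cells that keep Sox9, 7 were detected, 6 of them higher, 4 by over 1.1-fold, with a median of 0.15. Their sum was 4139 and 4529, with Gfap at 406 and 615 (0.58). Sox9 itself differed by -0.031, and the part of astrocyte genes in the other differences was not tested. All 8 neuron markers were detected, 5 higher (3 by over 1.1-fold) and 3 lower (2 by over 1.1-fold), with a median of 0.11 and sums of 8079 and 8417. The medians of the astrocyte and neuron markers thus also lay above the 0.027 of all detected genes, as that of the premyelinating and myelin genes did. Of 8 microglia markers 1 was detected (Cx3cr1, 98.1 and 98.7), of 6 endothelial markers 0, and of 6 mesenchyme markers 4, with sums of 644 and 636.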

How the data were processed

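The authors deposited probe set intensity values on a linear scale for 2 arrays, 1 per virus, hybridised with biotin-labelled RNA (GeneChip WT labelling kit, per the labels' protocols). Their background correction, normalization and summarisation are not given in the sources used here, and no further normalization was applied. Medians were 101 and 98.8. Intensities of 1-colour arrays give no read depth, and the number of arrays limits the precision. Gene symbols came from GEO's platform annotation (21789 probe sets with 1 symbol, 1621 with several, 5534 with none). All 9 factors matched the RefSeq gene table of GRCm38.p6 by gene number, which supplied gene spans. Genes with several probe sets took the brightest. With 1 array per group no test could be made.

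The factors and gene lists were chosen with earlier results of these data known. Of each list the 2 highest and 2 lowest detected genes were named, with Pdgfra, Shh, Gli1, Ptch1, Mbp and Hmgn1 fixed by name. Some listed genes were not analysed here. Markers of other cells were named to describe their lists, and Chd7 after its values were seen. Alternatives were offsets of 1 and 64, centring, quantile normalization, lowess removal of the trend with intensity (span 0.3), means of probe sets, other floors, and sizes of 0.322 and 0.14 on the log2 scale. Removal of the gene span trend (lowess on log10 span) was chosen after seeing the data. Code in Python 3.11.15 with numpy 2.4.6, pandas 2.3.3, scipy 1.17.1 and statsmodels 0.14.6 was tested on simulated data.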

Additional observations from a re-analysis of the deposited data

How the results depend on the processing

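The counts of factors at least 1.5-fold higher (0) or lower (0) stayed at 0 under every alternative that kept this size and at a log2 size of 0.322, and became 3 and 1 at 1.1-fold, a change of the size itself. The median difference of the detected factors, 0.028, ran from -0.0089 with the intensity trend removed to 0.055 without a floor, which brings in Nkx6-2. Centring, which takes off 0.027, left it at 0.00052. The mean of probe sets and the higher floor changed no factor, since each has 1 probe set and the same 8 factors remained above that floor. Olig1 changed sign with the gene span trend removed (0.0086), a setting chosen after seeing the data. No array can be left out of a pair. No paired analysis was possible because the labels give a single array for each virus. Low signal limits Nkx6-2, and a difference within about 0.0891 could not be told from scatter between probe sets. A larger difference is not set apart from scatter by passing that size. The middle 95% of detected genes ran from -0.21 to 0.23, which takes in Nkx2-2, Zfp488 and Olig2.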

Other observations

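Hmgn1 lies on the same mouse chromosome as Olig1 and Olig2, chromosome 16, with 107 annotated genes between Olig1 and Hmgn1. The 3 genes differed by 0.57 (Hmgn1), -0.016 (Olig1) and -0.16 (Olig2). HMGN1 is also what the virus carries, and whether the Hmgn1 signal came from the virus or from chromosome 16 was not tested. The order of the 8 detected factors by difference still followed gene span after the trend with span over all detected protein-coding genes was removed (Spearman's rho 0.81, against 0.86 before), as a description over 8 genes.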
